A study of Homo sapiens with 24 samples.

Results

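Nuclear genes for the respiratory chain were followed through POM121 knockdown in 2 prostate cancer sublines. They were chosen by symbol alone: NDUFA, NDUFB, NDUFC, NDUFS or NDUFV followed by a digit, UQCR, COX4 to COX8, ATP5, SDHA to SDHD, and CYC1. This took 93 of the 25277 symbols of the deposited table, with 41 in complex I, 4 in complex II, 11 in complex III, 17 in complex IV and 20 in complex V. Of these, 82 are subunits or isoforms of subunits by textbook knowledge. The other 11 matched by name only: the read-through transcripts NDUFC2-KCTD14 and ATP5J2-PTCD1, the antisense transcripts NDUFA6-AS1 and NDUFB2-AS1, the copies ATP5EP2, ATP5L2, UQCRBP1 and UQCRHL, and ATP5S, ATP5SL and COX7A2L. ATP synthase genes appear under the older symbols that the table uses.

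DU145DR and 22Rv1DR are aggressive derivatives of the human prostate cancer lines DU145 and 22Rv1 and are known as models of docetaxel resistance. Each received a control treatment that the labels describe no further, or 1 of 2 commercial siRNA constructs against POM121, a nucleoporin of the nuclear pore's membrane ring. The labels do not say whether a subline is 1 clone, and no time after transfection is given. Poly(A) RNA was sequenced from 12 libraries on 2 lanes each, and each of the 6 groups holds 2 libraries. In the library codes the letter gives the treatment, A for control, B for construct 1 and C for construct 2, and the number the replicate, which is 1 or 2 for DU145DR and 4 or 5 for 22Rv1DR. Lanes 1 and 2 carried every library of DU145DR as well as 4A, and lanes 3 and 4 carried 5A, 4B, 5B, 4C and 5C. The labels do not state that a group's 2 libraries are from separate cultures, and p-values then reflect no more than how these libraries scatter. Values are FPKM, fragments per length of transcript and per size of the library, with everything at or below 1 FPKM listed at 0. In bulk RNA of this kind, fewer cells of a type and less RNA per cell cannot be told apart.

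The respiratory chain sits in the inner mitochondrial membrane. Complex I takes electrons from NADH and complex II from succinate, complex III passes them to cytochrome c, complex IV hands them to oxygen, and complex V, the ATP synthase, uses the resulting proton gradient to make ATP. Most subunits are encoded in the nucleus, translated in the cytosol and imported into mitochondria, and a few core subunits come from mitochondrial DNA, which is not analysed here. Transcription factors of the NRF1, GABP (an ETS family factor) and YY1 kind are known to bind the promoters of many of these nuclear genes.

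The sequences below are the 150 bases before the annotated start of subunits in complexes I, II, IV and V. In each complex these have the smallest and the largest difference between the lines' control libraries. Only subunits above the floor in all 24 samples, matched to a promoter and not on a chromosome left out of this display were considered. The sequences are shown because the difference between the lines is the largest movement of the genes in these data. They come from RefSeq (build GRCh38.p14), 5′ to 3′ on the gene's strand, and capitals mark the letters GCGCANGCG (the NRF1 core) and CCGGAAG (the ETS core) on either strand. In SDHD and ATP5C1 the NRF1 core lies on both strands, 1 base apart, so that the matches overlap. NDUFA8 holds NRF1 cores that run across or lie past the last base shown, and NDUFA9 a YY1 core after its start.

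NDUFA8, chr9:122159780-122159929, minus strand: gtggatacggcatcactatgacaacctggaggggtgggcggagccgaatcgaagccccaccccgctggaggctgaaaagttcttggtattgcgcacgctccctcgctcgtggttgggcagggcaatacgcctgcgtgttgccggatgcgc
NDUFA9, chr12:4648964-4649113, plus strand: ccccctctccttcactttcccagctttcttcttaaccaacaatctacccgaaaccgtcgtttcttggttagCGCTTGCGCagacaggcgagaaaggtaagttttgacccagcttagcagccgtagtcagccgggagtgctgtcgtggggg
SDHD, chr11:112086723-112086872, plus strand: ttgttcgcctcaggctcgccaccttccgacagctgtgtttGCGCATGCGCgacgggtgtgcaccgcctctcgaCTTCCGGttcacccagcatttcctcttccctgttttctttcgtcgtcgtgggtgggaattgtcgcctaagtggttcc
SDHA, chr5:218170-218319, plus strand: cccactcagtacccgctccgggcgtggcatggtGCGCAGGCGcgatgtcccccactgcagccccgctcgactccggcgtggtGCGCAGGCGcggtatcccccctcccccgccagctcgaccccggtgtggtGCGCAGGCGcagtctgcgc
COX6B1, chr19:35648173-35648322, plus strand: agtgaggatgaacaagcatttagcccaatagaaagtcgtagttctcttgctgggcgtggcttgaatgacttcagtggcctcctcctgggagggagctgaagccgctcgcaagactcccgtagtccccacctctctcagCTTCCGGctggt
COX7C, chr5:86617791-86617940, plus strand: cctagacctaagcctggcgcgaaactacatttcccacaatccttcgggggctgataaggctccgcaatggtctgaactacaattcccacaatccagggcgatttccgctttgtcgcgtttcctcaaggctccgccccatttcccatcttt
ATP5C1, chr10:7788027-7788176, plus strand: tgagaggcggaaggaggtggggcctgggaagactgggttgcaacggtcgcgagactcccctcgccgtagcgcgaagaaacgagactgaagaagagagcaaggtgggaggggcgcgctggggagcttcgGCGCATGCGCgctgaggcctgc
ATP5E, chr20:59032336-59032485, minus strand: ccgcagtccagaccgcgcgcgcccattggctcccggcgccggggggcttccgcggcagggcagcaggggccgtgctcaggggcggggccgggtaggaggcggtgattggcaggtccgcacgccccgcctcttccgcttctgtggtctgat

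The genes shown were picked as extremes of the line difference, and a link between it and these letters was not tested. SDHA has 3 NRF1 cores in the bases shown and differed by 0.50 (log2), while COX7C has none there and differed by 3.19. NDUFA8, with cores across its start, differed by 0.01. Over the full RefSeq windows of 250 bases before to 50 after the start, 73 of the 93 genes were matched, among them 64 of the 76 subunits tested. The letters GCGCANGCG were found on either strand in 31.2% of these 64 windows, against 7.52% of all 35116 RefSeq promoter windows. The latter are not limited to the symbols tested, while the subunits are, with 1 window each. The sets are therefore unlike, and no share over the promoters of all symbols tested is given. CCGGAAG was found in 29.7% against 10.3%, and AAGATGGC (the YY1 core) in 17.2% against 2.89%. At least 1 of the 3 was present in 59.4% against 18.4%. Of the 59 matched subunits called higher in 22Rv1DR controls, 30.5%, 32.2% and 18.6% held the NRF1, ETS and YY1 cores. Of the 5 not called higher, 40%, 0% and 0% did. These shares describe letters only, and a window without them says nothing about a factor.

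POM121 itself was lower in every treated library. In DU145DR it measured 21.6 and 21.3 FPKM in the controls, 13.4 and 13.5 with construct 1, and 12.4 and 13.2 with construct 2. In 22Rv1DR the controls held 38.5 and 37.8 FPKM, construct 1 libraries 7.68 and 7.81, and construct 2 libraries 6.73 and 7.43. The log2 change was -0.71 ± 0.05 (SE) in DU145DR and -2.37 ± 0.05 in 22Rv1DR, with adjusted p of 5.66e-05 and 9.48e-09 (limma). The near-identical copy POM121C moved alike, by -0.71 and -2.58, and reads of the pair may be split between them. The prostate luminal markers differed between the lines: KLK2, KLK3, TMPRSS2 and FOLH1 were listed at 0 in every DU145DR group and were at 6.33, 1.97, 3.07 and 11.1 FPKM in 22Rv1DR controls. KRT8 and KRT18 were above the floor in both. Of 11 markers of stromal, endothelial and blood cells, 9 were listed at 0 in all groups. COL1A1 was at 1.06 FPKM in DU145DR controls and 8.35 in 22Rv1DR controls, and CD68 at 15.6 and 1.74.

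The largest movement of the respiratory chain genes was not with siPOM121 but between the lines. All members together made up 2.31% to 2.46% of the summed FPKM in the 6 DU145DR libraries and 5.12% to 5.68% in the 6 libraries of 22Rv1DR, without overlap. Complex I held 0.876% to 0.939% in DU145DR and 1.63% to 1.77% in 22Rv1DR. Complex IV held 0.486% to 0.533% and 1.28% to 1.55%. Complex V held 0.577% to 0.610% in DU145DR and 1.39% to 1.78% in 22Rv1DR. Complex II, with 0.0778% to 0.0836% and 0.0908% to 0.105%, also did not overlap.

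**Figure D1:**
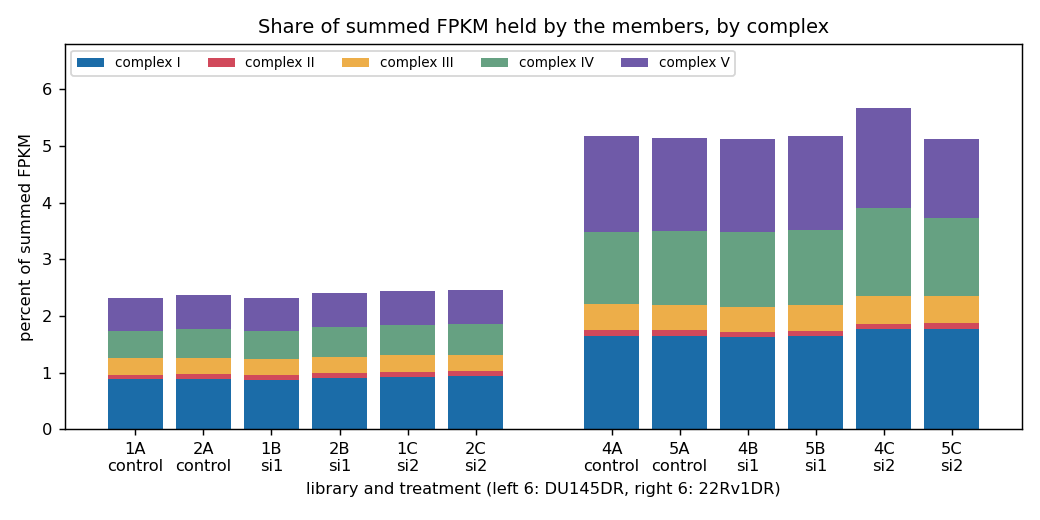
Stacked bars give the percent of summed FPKM (vertical axis) that the members of each complex hold in each of the 12 libraries (horizontal axis, with the treatment under the library code). The 6 DU145DR libraries reach 2.31% to 2.46% and the 6 libraries of 22Rv1DR 5.12% to 5.68%, and 5C has the lowest complex V share of its line, 1.39%.

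Of the 93 members, 85 could be tested, since they were above the floor on both lanes in at least 2 libraries, and 81 were above it in all 24 samples. The 8 others were listed at 0 in every sample. Comparing the control libraries, 74 of the 85 were higher in 22Rv1DR and 6 were lower at an adjusted p below 0.05, where 40.3% of all 13622 symbols tested were higher and 42.7% lower. The median difference was 1.14 on the log2 scale, or 2.2-fold, against a median of -0.02 over all symbols. By at least 2-fold, 51 were called higher, and 15 by at least 4-fold, of which 3 (ATP5J2, NDUFC2-KCTD14 and ATP5L2) rest on samples listed at 0. The shares of all symbols above are for a difference of any size, and none is given at these folds. For 73 members all 6 libraries of 22Rv1DR lay above all 6 of DU145DR, and for 4 they lay below. No share over all symbols is given for this overlap. Among the 76 subunits tested, 68 were higher and 3 lower, and the number of calls among the 85 stayed between 79 and 82 when any 1 library was left out. Library 4A shared its lanes with DU145DR: without 5A, and so within that lane pair, 74 members were higher and 5 lower, with the lone control assumed to vary like the other groups. For that fit no share of all symbols is given. Scaling all libraries to equal summed FPKM moved the median of all symbols by -0.16, to -0.18. Of the members 72 were then higher and 6 lower, with a median of 0.96, where 33.3% of all symbols were higher and 47.7% lower.

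**Figure D2:**
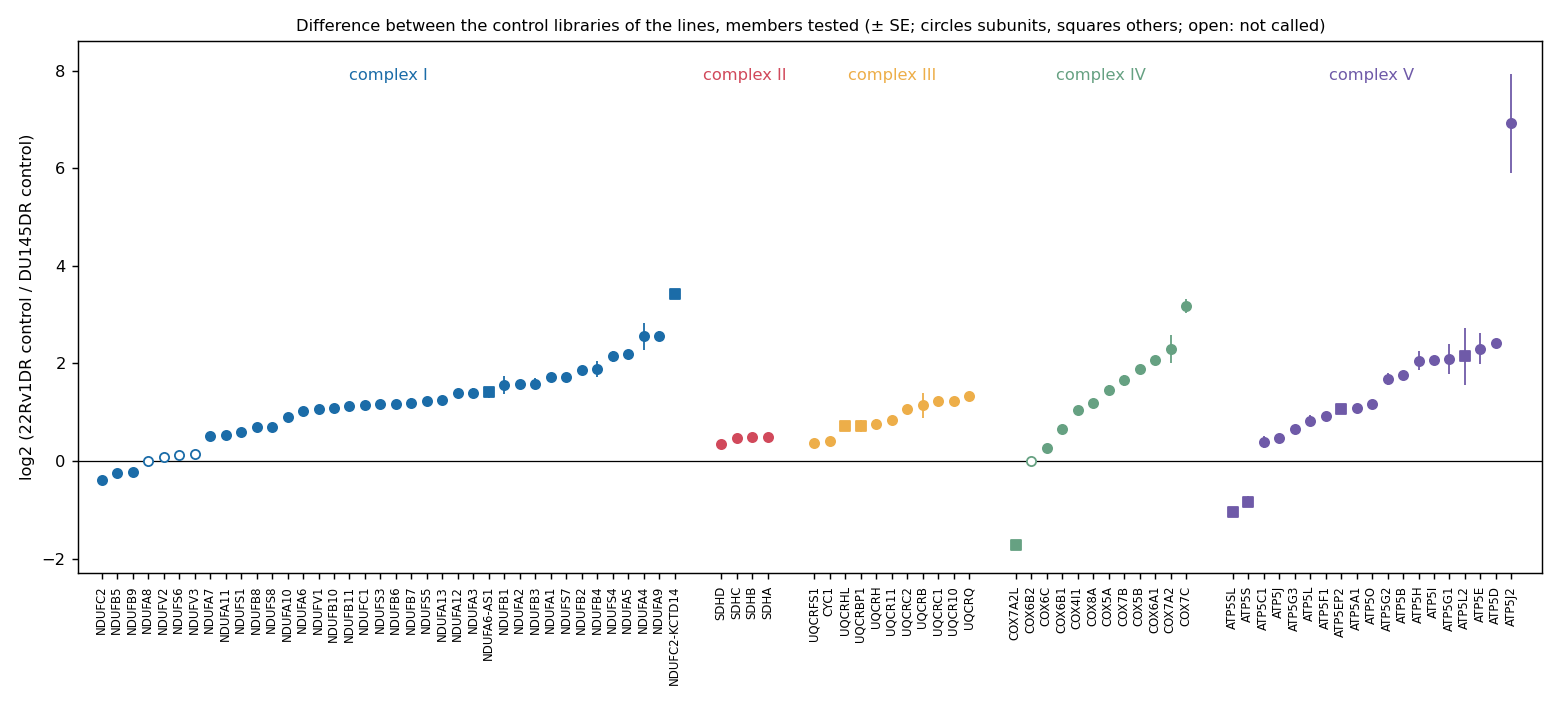
Each point is the log2 difference of the control libraries, 22Rv1DR minus DU145DR, of 1 of the members tested (1 is not shown), with its standard error, ordered within complexes (circles are subunits, squares other members, open symbols not called). Nearly all points lie above the line at 0, with COX7C at 3.19 and COX7A2L at -1.72; the bar of ATP5J2 reflects lanes that disagree, and its value and those of NDUFC2-KCTD14 and ATP5L2 rest on samples listed at 0.

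In complex I, 32 of 39 members were higher in 22Rv1DR controls and 3 lower, with a median of 1.17. NDUFA9, an accessory subunit near the ubiquinone site, was at 17.1 and 16.6 FPKM in DU145DR controls and at 100.5 and 97.6 in 22Rv1DR controls. Its libraries did not overlap in any treatment, and it was 5.88-fold higher (log2 2.56 ± 0.10, adjusted p = 5.42e-09, limma). NDUFA5 went from 6.46 and 6.57 to 30.6 and 29.1 FPKM, 4.59-fold. NDUFA4, named for complex I but now placed in complex IV, went from 21.1 and 22.1 to 122.4 and 131.1 FPKM, 5.87-fold. Leaving NDUFA4 aside, the 7 core subunits, the catalytic ones, had a median of 1.06, with 6 called higher. The 29 accessory subunits had a median of 1.18, with 23 higher and 3 lower.

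Among the core, NDUFV1, which binds NADH and the flavin, was at 72.9 and 68.5 FPKM and then 141.0 and 153.1. NDUFS1, the largest cluster-bearing subunit, was at 34.2 and 34.8 and then 51.8 and 51.7. Both were called. NDUFV2, also a core subunit, was at 52.9 and 55.7 in DU145DR controls and 55.9 and 58.7 in 22Rv1DR controls, and was not called.

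The other exceptions were accessory subunits. NDUFC2 was at 26.4 and 26.5 FPKM in DU145DR controls and 20.1 and 20.4 in 22Rv1DR controls. NDUFB5 was at 119.3 and 115.2 and then 99.8 and 97.2, and NDUFB9 at 259.4 and 263.8 and then 223.8 and 225.4. These 3 were lower in 22Rv1DR, with log2 differences of -0.38, -0.25 and -0.22. The calls of NDUFB5 and NDUFB9 were lost in some alternatives, and that of NDUFC2 in none. The read-through NDUFC2-KCTD14 was listed at 0 in all DU145DR samples and at 10.1 and 11.3 FPKM in the 22Rv1DR controls. In GENCODE 29 it shares 63.3% of its 50-base windows with NDUFC2, so reads of the pair may be split between them, and a fold is not given.

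Complex II, which is also an enzyme of the citric acid cycle, differed least. SDHA, which holds the flavin, was at 83.9 and 81.6 FPKM in DU145DR controls and 116.1 and 117.5 in 22Rv1DR controls. SDHB, the iron-sulfur subunit, was at 105.4 and 105.7 and then 148.4 and 147.7. The membrane anchors SDHC and SDHD went from 29.5 and 32.5 to 42.8 and 42.7, and from 67.0 and 70.2 to 88.6 and 86.0. All 4 were called higher, within a narrow range of 0.35 to 0.50 on the log2 scale.

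In complex III all 11 members were higher in 22Rv1DR controls, with a median of 0.83. UQCRQ, a small subunit of the complex, was at 36.9 and 36.6 FPKM and then 93.0 and 93.1, and had the highest difference, 1.34 ± 0.05. UQCRC1, a core protein on the matrix side, was at 103.9 and 98.5 and then 235.9 and 238.7. The redox subunits differed less: UQCRFS1, the Rieske iron-sulfur protein, by 0.36 and CYC1, cytochrome c1, by 0.40, a call lost after quantile normalization. UQCRH and its copy UQCRHL share windows (29.4% of those of UQCRH), and their values, 0.75 and 0.72, cannot be assigned to 1 of the pair with certainty.

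In complex IV the isoform genes were either expressed in both lines or listed at 0 in both, except COX6B2. COX4I2, COX6A2, COX7A1, COX7B2 and COX8C, the tissue-restricted isoforms of the complex, were listed at 0 in all 24 samples, as was NDUFA4L2. COX6B2 was just above the floor, at 1.17, 1.05 and 1.17 FPKM, in 1B, 2B and 1C, and listed at 0 elsewhere. Their common counterparts COX4I1, COX6A1, COX6B1, COX7A2, COX7B and COX8A were all called higher in 22Rv1DR controls.

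COX7C, a small subunit of the membrane part, was at 138.9 and 156.7 FPKM in the DU145DR controls and at 1351 and 1334 in the 22Rv1DR controls. This was 9.10-fold (log2 3.19 ± 0.14, adjusted p = 1.71e-08, limma), the largest difference among the subunits with every sample above the floor. COX7A2 went from 72.3 and 84.3 to 360.7 and 405.0 FPKM, 4.89-fold, and COX6A1 from 118.5 and 118.1 to 491.5 and 500.2, 4.19-fold. COX6C went from 135.1 and 134.0 to 156.7 and 166.0, a call lost with equal summed FPKM.

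COX7A2L, a supercomplex factor related to COX7A2 and not a subunit of the enzyme, went the other way. It was at 134.0 and 144.1 FPKM in DU145DR controls and 42.3 and 42.2 in 22Rv1DR controls. All 6 libraries of DU145DR lay above all 6 of 22Rv1DR, and the log2 difference was -1.72 ± 0.04 (adjusted p = 2.86e-10, limma).

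In complex V all 15 subunits were higher in 22Rv1DR controls, and their median was 1.68. The catalytic F1 head did not move in step. ATP5B, its beta subunit, went from 396.6 and 390.2 to 1349 and 1334 FPKM, and ATP5A1, the alpha subunit, from 222.0 and 225.8 to 475.1 and 473.0. ATP5C1, the gamma subunit of the rotor stalk, went from 193.1 and 187.1 to 257.0 and 241.2.

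The log2 differences of these 3 were 1.77, 1.08 and 0.39, and the call of ATP5C1 was lost in 4 alternatives: without 2A, without 4A, after quantile normalization and with equal summed FPKM. ATP5D and ATP5E, the delta and epsilon subunits of the same stalk, differed by 2.42 ± 0.08 and 2.31 ± 0.31. The 3 genes for the c subunit of the membrane ring, which encode the same mature protein, also differed: ATP5G1 by 2.08, ATP5G2 by 1.68 and ATP5G3 by 0.66. No 50-base window is shared between the 3 transcripts.

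ATP5J2, a small membrane subunit, had lanes that disagree. It was listed at 0 on 1 lane of 1A, 2A and 2B and at 51.7 to 61.3 FPKM on all other lanes of DU145DR, while 22Rv1DR lanes lay at 872.7 to 1162 and those of 5C at 244.4 and 257.4. It was called higher, and no fold is given. ATP5SL, since renamed as a complex I assembly factor, was at 46.6 and 46.0 FPKM in DU145DR controls and 21.5 and 23.4 in 22Rv1DR controls, and ATP5S, a coupling factor, at 7.74 and 7.898 and then 4.27 and 4.50. Both were called lower, so that 3 of the 6 members lower in 22Rv1DR were not subunits.

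Ribosomal protein genes, which are also abundant, were mostly higher in 22Rv1DR. Over all symbols tested 40.3% were higher in 22Rv1DR controls and 42.7% lower. Of 82 cytosolic ribosomal protein genes tested, 62 were higher in 22Rv1DR controls and 9 lower, with a median of 0.84 (0.67 in the 12 under 1 kb and 0.90 in the 36 over 2 kb), and their share of summed FPKM was 8.62% to 9.32% in DU145DR libraries and 12.1% to 18.3% in those of 22Rv1DR. Among other symbols with a longest transcript under 1 kb, 44.5% were higher with a median of 0.22, against a median of 1.34 for the 27 members of that length. At 1 to 2 kb the medians were 0.19 and 1.15, and over 2 kb -0.08 and 0.91. Across 82 members with a coding transcript length, the difference fell with the median length of these transcripts, not the longest one used above. Pearson r with log2 length was -0.32 and Spearman rho -0.37. The 82 include ATP5J2, NDUFC2-KCTD14 and ATP5L2, whose differences rest on samples listed at 0, and no correlation without them is given. The members are points of the same libraries and not replicates. Of 653 other symbols at a like level, 71 to 217 FPKM, 44.4% were higher and 39.2% lower, with a median of 0.08. The part of transcript length and of the ribosomal share in the result was not tested.

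With siPOM121 the members moved little in DU145DR. Taking both constructs together, 5 of 85 were higher and 1 lower, where 14.5% of all symbols were higher and 9.37% lower. The median change was 0.05 on the log2 scale, and no called member reached 0.3. At an unadjusted p below 0.05 there were 16 of 85, against 4908 of all 13622 symbols. The median absolute change was 0.06, against 0.11 over all symbols, and 98.8% of members stayed under 0.3 in size, against 85.6% of all symbols.

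The called members in DU145DR belonged to complexes I and II. SDHA was at 83.9 and 81.6 FPKM in the controls and at 92.7, 93.5, 94.5 and 95.7 in the treated libraries, all 4 above both controls, a rise of 0.19 ± 0.06 (adjusted p = 0.0400, limma). SDHD rose by 0.13, from 67.0 and 70.2 to between 73.9 and 75.7. SDHB (0.00) and SDHC (0.06) were not called.

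In complex I, NDUFA7 rose from 104.7 and 101.6 to between 109.1 and 125.5 FPKM, by 0.17 ± 0.04. NDUFA13, also known as GRIM-19, rose from 211.0 and 225.7 to between 232.0 and 252.9, by 0.17 ± 0.04. NDUFS7, a core iron-sulfur subunit, rose by 0.15 ± 0.05 and NDUFA6 fell by 0.15 ± 0.05, from 42.04 and 40.8 to between 35.3 and 38.3.

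None of these 6 calls lasted through all 28 alternatives. The number of calls changed whichever library was left out, while the members' median change stayed between 0.022 and 0.053. Libraries 4C and 5C are of 22Rv1DR and enter the DU145DR calls only through the common spread. Without both of them 22 members were called in DU145DR, and no share of all symbols is given for that fit. No member of complexes III, IV or V was called in DU145DR by limma, and 4 had an unadjusted p below 0.05 there. ATP5G1 had the lowest value, -0.22, with 87.9 and 99.96 FPKM in the controls and 72.5, 79.7, 80.6 and 89.2 in the treated libraries, which overlap.

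In 22Rv1DR, where POM121 fell further, 9 members rose and 4 fell, where 15.2% of all symbols rose and 20.4% fell. The median change of the members was 0.00, against -0.02 over all symbols, and 92.9% stayed under 0.3 in size against 79.7% of all symbols. By complex, 5 rose and 3 fell of 39 in complex I, 0 of 4 were called in complex II, 1 rose and 1 fell of 11 in complex III, 2 of 12 rose in complex IV and 1 of 19 rose in complex V. In complex II 1 member had an unadjusted p below 0.05 (limma). Of the 76 subunits, 7 rose and 3 fell.

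NDUFB5, a membrane-arm accessory subunit, had the highest change. It was at 99.8 and 97.2 FPKM in the controls, 117.7 and 122.4 with construct 1, and 150.2 and 130.1 with construct 2. All treated libraries lay above both controls, and it rose 1.32-fold (log2 0.40 ± 0.06, adjusted p = 0.00105, limma). NDUFC2, another accessory subunit of that arm, rose from 20.1 and 20.4 to 22.9, 23.7, 26.2 and 25.3, 1.21-fold. Its read-through NDUFC2-KCTD14 fell from 10.1 and 11.3 to 8.84, 9.06, 8.29 and 8.22, by 0.32 ± 0.06.

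COX7A2L rose from 42.3 and 42.2 FPKM to 51.2 and 49.8 with construct 1 and 55.7 and 55.4 with construct 2. This was 1.25-fold (log2 0.33 ± 0.04, adjusted p = 0.000335, limma). COX6C rose from 156.7 and 166.0 to 180.4, 182.5, 222.5 and 194.6, by 0.27 ± 0.06. ATP5EP2, a processed copy of the epsilon subunit gene ATP5E, rose from 269.3 and 278.6 to 297.7, 304.6, 358.7 and 356.5. It shares 14.0% of its windows with ATP5E, so its reads are not certain to be its own.

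NDUFA1, NDUFV2, NDUFB6 and UQCRQ rose by 0.17 to 0.22. NDUFS8, a core iron-sulfur subunit, fell from 189.0 and 183.3 FPKM to 163.4, 162.2, 168.6 and 176.3, and UQCRC1 fell from 235.9 and 238.7 to 211.6, 209.4, 200.6 and 227.6. In both, all 4 treated libraries lay below both controls, and the changes were -0.15 ± 0.04 and -0.16 ± 0.05. NDUFB5, NDUFC2, NDUFC2-KCTD14, COX7A2L and ATP5EP2 were called in all alternatives run; the other 8 were lost in at least 1. NDUFB5, NDUFC2 and COX7A2L are also among those lower in 22Rv1DR controls than in DU145DR controls, a comparison that shares the 22Rv1DR control libraries with this one.

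The number of calls moved with single libraries. Without 4C, 11 members rose and 15 fell, 8 of the falls in complex V, where 21.1% of all symbols rose and 23.9% fell. Without 5C, 31 rose and 11 fell, with 8 of 12 rising in complex IV, where 18.6% of all symbols rose and 32.9% fell. The calls were 5 without 4A (10.1% of all symbols rising and 11.4% falling), 7 without 5A (8.24% and 10.5%), 8 without 4B (12.6% and 14.9%) and 8 without 5B (11.6% and 16.2%). With each line fitted alone 8 were called, and no share of all symbols is given for that fit.

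**Figure D3:**
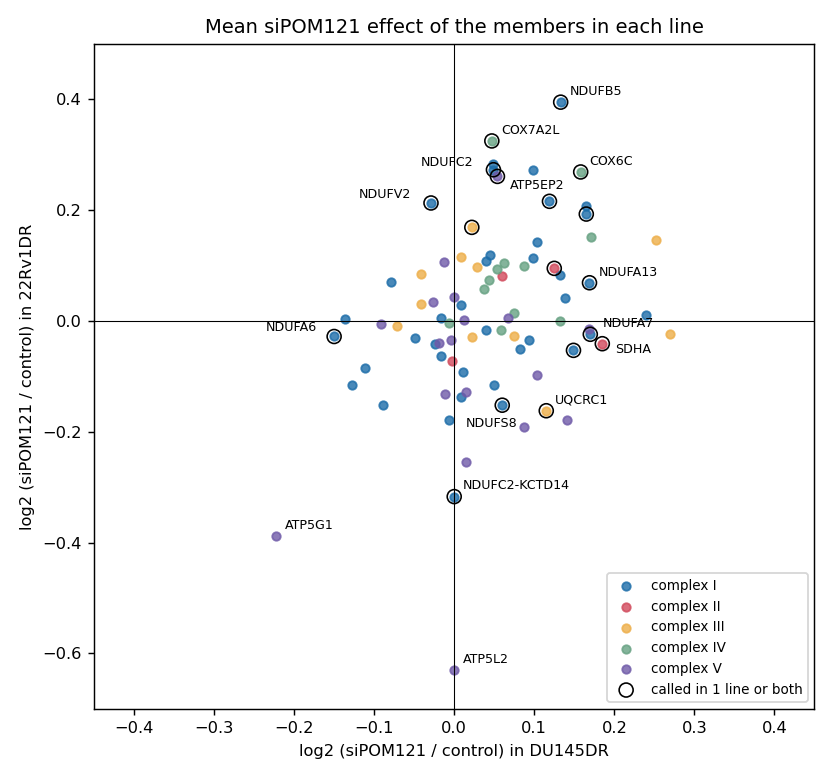
Each point is 1 member, with the log2 change with siPOM121 in DU145DR (horizontal axis) and in 22Rv1DR (vertical axis), coloured by complex and circled where it was called in 1 line or both. Most points lie close to 0 on both axes, with NDUFB5 at 0.40 and COX7A2L at 0.33 in 22Rv1DR, while ATP5L2 (-0.63) and ATP5G1 (-0.39) were not called. ATP5J2, whose lanes disagree, and 1 other member are left out.

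The change with siPOM121 differed between the lines for 9 of the 85 members, 4 with the higher value in 22Rv1DR and 5 with the lower, where 8.93% of all symbols had the higher and 15.9% the lower value there. The 4 were COX7A2L (difference 0.28 ± 0.05, adjusted p = 0.00695, limma), NDUFB5 (0.26), NDUFC2 (0.22) and ATP5EP2 (0.21). The 5 were UQCRC1 (-0.28), NDUFS8 (-0.21), NDUFS7 (-0.20), NDUFA7 (-0.20) and NDUFC2-KCTD14. The last is listed at 0 throughout DU145DR, so its value is the change in 22Rv1DR alone and no test of a difference between the lines.

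For COX7A2L the DU145DR libraries stayed between 134.0 and 147.2 FPKM, where controls and treated libraries overlap, while the treated libraries of 22Rv1DR all lay above its controls. UQCRC1 fell in 22Rv1DR, and it was at 103.9 and 98.5 FPKM in DU145DR controls and 108.6, 108.3, 112.3 and 109.1 after treatment, a change of 0.12 that was not called. The difference of COX7A2L was called in all alternatives and the other 8 were lost in at least 1.

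**Figure D4:**
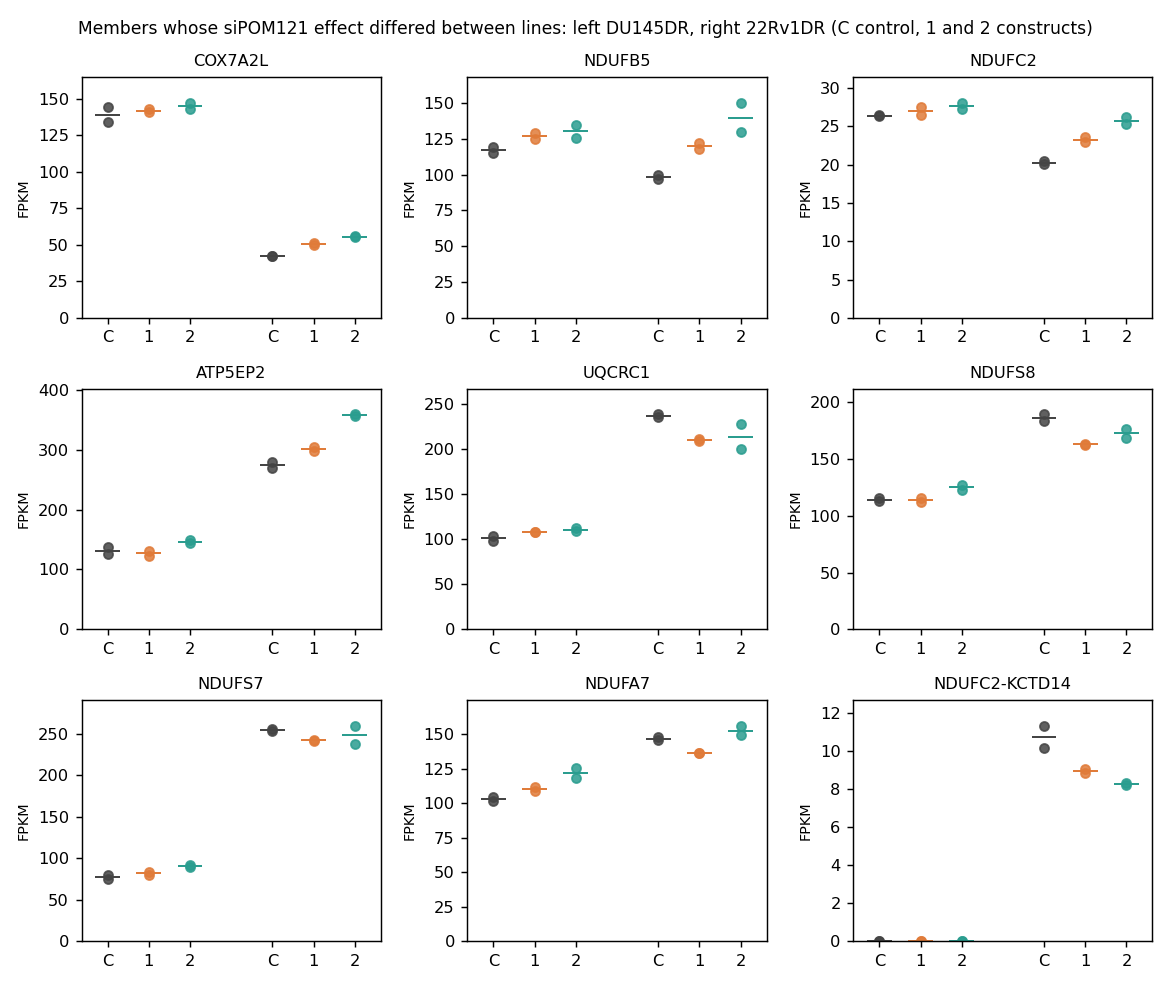
FPKM (vertical axes, from 0) of the 9 members whose change differed between the lines, 1 point per library and a line at the group's geometric mean, with DU145DR on the left and 22Rv1DR on the right of each panel (C control, 1 and 2 the constructs). COX7A2L lies between 134.0 and 147.2 in DU145DR and goes from 42.2 to between 49.8 and 55.7 in 22Rv1DR, and NDUFC2-KCTD14 is listed at 0 in DU145DR.

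Taken one at a time, the constructs moved few members in DU145DR. Construct 1 raised 1 member, SDHD, and lowered none, where 12.2% of all symbols rose and 7.62% fell. Construct 2 raised 4 (NDUFA7, NDUFA13, NDUFS7 and COX6C, the last by 0.22) and lowered none, where 11% rose and 5.62% fell. At an unadjusted p below 0.05 there were 8 and 18 members in either direction, against 4509 and 4147 of all 13622 symbols. The constructs did not differ by the test for any member in DU145DR, where 0.0220% of all symbols were called (limma), and 12 members had an unadjusted p below 0.05, against 725 of all 13622 symbols.

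In 22Rv1DR construct 1 raised 4 members and lowered 4, where 12% of all symbols rose and 15.2% fell. SDHB was among the falls, from 148.4 and 147.7 FPKM to 128.3 and 130.5, while with construct 2 it was at 153.3 and 153.5. Construct 2 raised 13 and lowered 2, where 14.5% rose and 20.6% fell. Complex IV had 4 of the 13: COX7A2L, COX6C, COX5B and COX6A1. Construct 2 was above construct 1 for 8 members and below it for none, where 7.30% of all symbols were above and 4.28% below. Without 4C, 8 were above and 18 below (6.41% and 4.65% of all symbols), and without 5C 37 were above and 6 below (14.6% and 29.3%). The 8 with all libraries were NDUFA7, NDUFA11, NDUFB6, NDUFC1, SDHB, UQCRQ, ATP5EP2 and ATP5I.

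The construct 2 libraries of 22Rv1DR did not match each other. Of the 85 members, 11 differed by more than 0.5 on the log2 scale between 4C and 5C, or 12.9%, against 5.98% of all symbols and 47.6% of the ribosomal protein genes. In the other 5 pairs of libraries 0 or 1 member did. All 11 were lower in 5C, where each had the lowest value of its line: ATP5J2, ATP5L2, ATP5E, ATP5G1, ATP5H, COX7A2, COX7C, NDUFA4, NDUFB1, NDUFB4 and UQCRB. ATP5E was at 1036 FPKM in 4C and 459.4 in 5C, with the other 4 libraries at 751.2 to 841.3. ATP5G1 was at 383.7 and 173.7, with the others at 355.5 to 408.4, and COX7A2 at 556.4 and 264.3, with the others at 360.7 to 431.8.

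**Figure D5:**
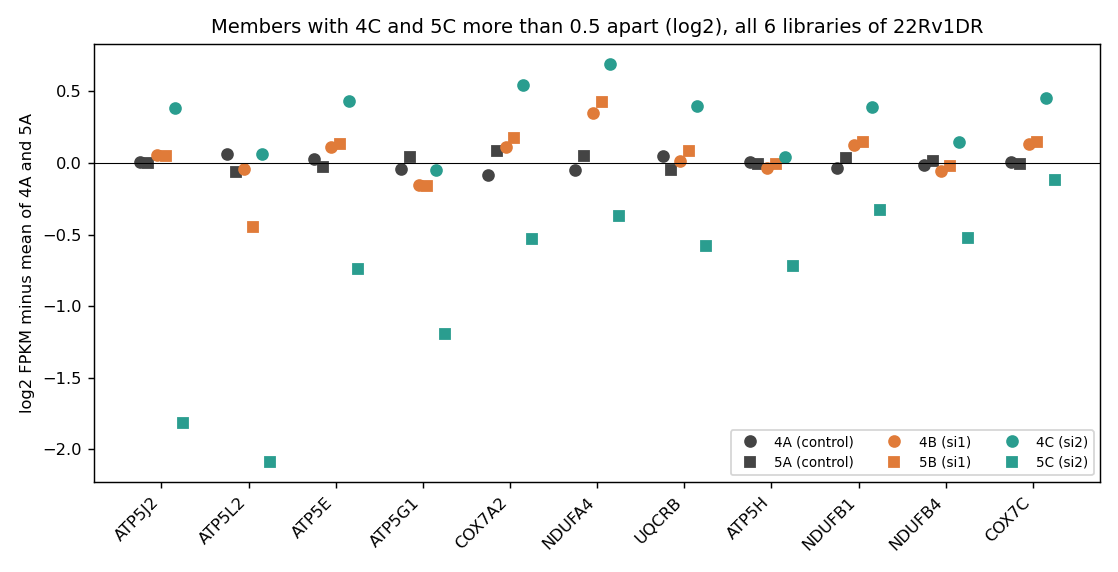
Log2 FPKM minus the mean of the controls 4A and 5A (vertical axis) for the 11 members that differ by more than 0.5 between 4C and 5C, with 1 symbol for each of the 6 libraries of 22Rv1DR. In all 11 the square of 5C is the lowest, and in most the circle of 4C is the highest; ATP5E is at 1036 FPKM in 4C and 459.4 in 5C.

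The same libraries had the highest and the lowest ribosomal protein share of their line, 18.3% in 4C and 12.1% in 5C. The rises of NDUFB5, COX7A2L, NDUFC2 and ATP5EP2 with construct 2 were called without either of them, while the counts depended on which was kept. Without 5C, construct 2 raised 37 members and lowered 10, with a median of 0.11, where 17.3% of all symbols rose and 35.3% fell. Without 4C it raised 11 and lowered 17, where 16.7% rose and 17.1% fell, and 10 of the 17 were in complex V, whose median was -0.17. With both libraries that median was -0.14, with 1 of 19 raised. Which of the libraries stands closer to the treatment was not tested.

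Genes that build or serve the chain were counted from lists of known function. To set beside these counts, 40.3% of all 13622 symbols tested were higher in 22Rv1DR controls and 42.7% lower. In 22Rv1DR controls 13 of 17 genes of pyruvate dehydrogenase and the citric acid cycle were higher and 1 lower, with a median of 0.92. FH, fumarase, was at 24.6 FPKM in DU145DR controls and 127.1 in 22Rv1DR controls, and CS, citrate synthase, at 64.3 and 220.4. Of 13 genes that maintain or transcribe mitochondrial DNA, 10 were higher and 2 lower. The assembly factors were split, with 8 higher and 4 lower of 14 for complex I (ATP5SL is counted there too), 2 and 1 of 4 for complex II, 3 and 0 of 6 for complex III, 11 and 7 of 22 for complex IV and 3 and 0 of 4 for complex V. In that complex IV list, LRPPRC, which stabilises mitochondrial mRNAs, was lower, at 96.8 FPKM in DU145DR and 19.9 in 22Rv1DR controls. SCO2, a copper chaperone of complex IV, was listed at 0 in DU145DR and at 50.1 FPKM in 22Rv1DR controls. CYCS, cytochrome c, was higher (51.3 and 91.7) and its lyase HCCS lower (20.2 and 12.5). Among 10 regulators, 4 were higher and 4 lower, near the shares of all symbols. ESRRA, a nuclear receptor for mitochondrial genes, was at 17.9 FPKM in DU145DR controls and 74.5 in 22Rv1DR controls, NRF1 at 8.35 and 5.84, GABPA at 15.8 and 11.4, and YY1 at 34.8 and 28.5.

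Among genes of the machinery that imports these subunits, 13 of 24 fell with siPOM121 in DU145DR and 0 rose, where 9.37% of all symbols fell. The list's median was -0.23 against 0.00 over all symbols. TOMM40, the outer membrane channel, fell by 0.26 ± 0.05, TIMM13, a small carrier of the intermembrane space, by 0.29 ± 0.05, and TIMM23, the inner membrane channel, by 0.23 ± 0.04. In 22Rv1DR 8 of 24 fell and 1 rose, where 20.4% of all symbols fell, with a median of -0.07 against -0.02. TOMM40 fell there by 0.64 ± 0.05, which differed from DU145DR by -0.38 ± 0.07 (adjusted p = 0.00441, limma), and TIMM21 by 0.32 ± 0.06, and TOMM20, an outer membrane receptor, rose by 0.19 ± 0.04. With 22Rv1DR fitted alone 1 fell and 0 rose, and no share of all symbols is given for that fit. The counts there also moved with the construct 2 library left out, and the list's median was -0.16 without 4C and -0.09 without 5C. Whether the import list differs from the members was not tested.

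Of 13 genes for mitochondrial DNA, 3 fell in DU145DR and 4 in 22Rv1DR, against those shares of 9.37% and 20.4% of all symbols, and none rose in either. These counts moved in both lines when 4C or 5C was left out. The list's median in 22Rv1DR was -0.07 without 4C and -0.10 without 5C. With 22Rv1DR fitted alone 1 fell there, in a fit for which no share of all symbols is given. MTERFD1, of the mitochondrial transcription terminator family, fell in both, by 0.25 ± 0.04 and 0.16 ± 0.04, and TFB2M, a mitochondrial transcription factor, by 0.38 ± 0.07 in DU145DR. Of the 10 regulators 3 fell in each line, against 9.37% and 20.4% of all symbols, and 1 was called higher in 22Rv1DR. That was PPARGC1A, whose controls were at the floor of the table. PPRC1, a coactivator of the PGC-1 family, fell by 0.30 ± 0.06 and 0.54 ± 0.06, and PPARGC1B by 0.29 ± 0.08 and 0.24 ± 0.08. PPARGC1A was listed at 0 in DU145DR and was at 1.005 FPKM in 22Rv1DR controls, 1.29 with construct 1 and 1.45 with construct 2, so no size is given for its change.

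With siPOM121 14.5% of all symbols rose and 9.37% fell in DU145DR, and 15.2% rose and 20.4% fell in 22Rv1DR. Of the 17 genes around the citric acid cycle 1 rose and 1 fell in DU145DR, and 4 fell in 22Rv1DR with none rising. The counts in both lines moved when 4C or 5C was left out. The list's median in 22Rv1DR was -0.07 without 4C and -0.08 without 5C. With each line fitted alone 1 fell in 22Rv1DR, and 1 rose and 4 fell in DU145DR. For the fits of 1 line no share of all symbols is given. IDH2, the mitochondrial NADP-linked isocitrate dehydrogenase, rose in DU145DR by 0.54 ± 0.04, from 28.3 FPKM to 40.8 and 41.4 with the constructs. The 22Rv1DR groups lay between 34.1 and 35.6, and the lines differed by -0.60 ± 0.06 (adjusted p = 0.000351, limma). The same shares of all symbols stand beside the counts for assembly factors, given as up and down in DU145DR and then in 22Rv1DR. For complex I they were 1 and 1, then 2 and 2 of 14. For complex II they were 1 and 0, then 2 and 0 of 4, and for complex III 0 and 1 of 6 in both lines. For complex IV they were 1 and 5, then 5 and 2 of 22, and for complex V 1 and 0, then 0 and 0 of 4. The counts for assembly factors also moved when 4C or 5C was left out. The complex IV list's median in 22Rv1DR was 0.06 without 4C and 0.02 without 5C. With each line fitted alone its counts were 1 and 4, then 2 and 0. COA6, a complex IV copper factor, fell by 0.37 ± 0.05 in DU145DR and rose by 0.19 ± 0.05 in 22Rv1DR, a difference of 0.56 ± 0.07 between the lines (adjusted p = 0.000893, limma). HCCS fell in DU145DR by 0.23 ± 0.06, and CYCS was called in neither line. ATPIF1, the inhibitor of the ATP synthase, rose by 0.24 ± 0.05 in DU145DR.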

How the data were processed

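Poly(A) RNA-seq of 12 libraries, each on 2 lanes, was analysed from the deposited table of 27026 lines and 25277 symbols. Per the submitters' processing notes the tools were TopHat and Cufflinks, with human build hg19 named, and the kit the labels name does not mark strand. The authors' values are log2 FPKM; values at or below 1 FPKM were listed at 0 in the deposited table, 52.8% of all. Only FPKM are given, so sequencing depth is unknown and no counting interval can be given. A repeated symbol was represented by its line with the highest mean, and lanes were averaged on the log2 scale, so group means are geometric.

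Symbols above the floor on both lanes in at least 2 libraries (13622) were fitted with limma 3.58.1 in R 4.3.3, with all 6 groups of 2 libraries in 1 model, trended and robust variance and 6 residual degrees of freedom. Adjusted p-values are Benjamini-Hochberg over all 13622, with a threshold of 0.05, and the tests are two-sided. A log2 change of a gene listed at 0 somewhere depends on the floor. GENCODE 29 gave transcript lengths and shared 50-base windows, and RefSeq the promoters. Coordinates are those of GRCh38.p14, not of the authors' build. In total 28 alternatives were fitted.

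The members and lists were chosen with earlier results of these data known. The named members are core subunits, genes with a tissue isoform or copy, up to 4 per complex with the smallest p for siPOM121 in each line, up to 2 for each other contrast, the lowest and highest change in each line, and up to 3 from each list. COX7C, NDUFA9, NDUFA5, ATP5E, NDUFV2, NDUFB9 and the other members named outside this rule were chosen after their values were seen. Changes ± SE are from the model. Replicate numbers were not used as a block, since only 2 pairs exist in each line and the deviations of same-numbered libraries correlated by -0.102 to 0.126. Values of some single genes are not reported here. No test by Dixon's rule was made with 2 libraries a group.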

Additional observations from a re-analysis of the deposited data

Results flagged for a closer look

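The change with siPOM121 was called different between DU145DR and 22Rv1DR for 9 members by a test of the difference itself (limma, adjusted over 13622 symbols). As 22Rv1DR minus DU145DR on the log2 scale, it was higher for COX7A2L by 0.279, NDUFB5 by 0.262, NDUFC2 by 0.224 and ATP5EP2 by 0.206. It was lower, at -0.317 for NDUFC2-KCTD14, -0.278 for UQCRC1, -0.211 for NDUFS8, -0.202 for NDUFS7 and -0.195 for NDUFA7. NDUFC2-KCTD14 was listed at 0 in DU145DR, so its value is the change in 22Rv1DR alone and no test of a difference between lines. POM121 itself fell by 0.71 in DU145DR and by 2.37 in 22Rv1DR, and the part of the unequal knockdown in these differences was not tested.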

How the results depend on the processing

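Depth cannot be read from FPKM, each group has 2 libraries, and 4C and 5C, which differ most, enter the common spread. The median line difference of the controls kept its direction in all alternatives, and 75 of its 80 calls were kept in all (ATP5C1, COX6C, CYC1, NDUFB5 and NDUFB9 were not). Its medians lay between 0.962 (equal summed FPKM) and 1.214 (centred on the median), 1.007 after quantile normalization, 1.063 with equal sums leaving out ribosomal protein genes, and 1.105 to 1.151 when 1 library was left out. The siPOM121 counts below moved by more than 1.5 times in at least 1 alternative, and except where stated the cause was not tested. Calls over all symbols moved too. With equal summed FPKM, 12.8% of all symbols rose and 11% fell with construct 2 in 22Rv1DR, against 14.5% and 20.6% as deposited. Such shares are not set beside the counts below, which are therefore no result about the members alone.

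With the replicate number as a block, construct 1 in DU145DR called 0 members, also with 4A and 5A crossed; the block moved no other count by over 1.5 times, with 4 calls for siPOM121 in DU145DR and 14 in 22Rv1DR. The 2 pairs a line share only a number.

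Treating 24 samples as replicates called 19 members in DU145DR and 32 in 22Rv1DR with siPOM121, 16 and 22 with constructs 1 and 2 in DU145DR, 24 and 41 in 22Rv1DR, 3 and 32 between constructs in DU145DR and 22Rv1DR, and 22 between lines, by construction, since lanes are not independent. Array weights called 19 in DU145DR, 11 and 22 for its constructs, 22 and 6 for those of 22Rv1DR, and 0 between them. Each line alone called 8 in 22Rv1DR, 4 for construct 1 in DU145DR, 4 and 6 for the constructs in 22Rv1DR and 1 between them.

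Quantile normalization called 12 in DU145DR, 5 (median 0.027) for construct 1 and 8 for construct 2 there. Centring called 3 for construct 1 in DU145DR, with medians of 0.033 in 22Rv1DR, 0.089 for construct 2 there, 0.076 between constructs and 0.033 between lines. Equal summed FPKM called 0 and 1 for the constructs in DU145DR (median between them 0.035), 13 between constructs in 22Rv1DR (median 0.083) and 5 between lines; leaving out ribosomal protein genes gave medians of 0.070 for construct 2 in 22Rv1DR and 0.040 between constructs in DU145DR. Among all symbols called, the percent higher went from 41.4 to 53.8 for construct 2 in 22Rv1DR and from 63.0 to 86.3 between its constructs with equal sums, from 66.1 to 54.3 (quantile) or 55.8 (centred) for construct 2 in DU145DR, and from 36.0 to 49.2 or 46.9 between lines.

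The lower-numbered lane alone called 2 for construct 2 in DU145DR, 4 between constructs in 22Rv1DR and 3 between lines. A mean of at least 5 FPKM called 2 for construct 1 in DU145DR, and no trend or robust options 2 in DU145DR and 0 for construct 1. Leaving out members that are not subunits left 5 calls for construct 1 in 22Rv1DR. Without 4C and 5C, chosen after seeing the data, 22 and 24 were called in DU145DR and 22Rv1DR, 14 and 25 for the constructs in DU145DR, 24 for construct 1 in 22Rv1DR and 19 between lines (median -0.047).

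Leaving out each library in turn gave 0 to 22 calls in DU145DR and 5 to 42 in 22Rv1DR (median -0.009 to 0.049), 0 to 14 (median -0.031 to 0.026) and 0 to 25 for the constructs in DU145DR, 2 to 24 and 8 to 47 (median 0.023 to 0.111) in 22Rv1DR, 0 to 43 between the latter (median 0.047 to 0.144) and 2 to 27 between lines (median -0.065 to 0.022). Counting each call of a single member in each alternative gave 3913 pairs, of which 428 lost the threshold and 0 changed sign. The control line difference lost 12 of 2157 pairs, and the other comparisons 416 of 1756.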
